A study of Homo sapiens with 18 samples.

Results

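The genes described here are 38 that mark the response of cells to low oxygen or carry out glycolysis, and 37 of them were measured, out of 19775 genes in the table. A gene was taken as measured where a probe set, the group of oligonucleotides that reads 1 transcript, was annotated to that gene and to no other, and a gene with several was read from the brightest. CA9 was not analysed here. The 37 genes had 88 single-gene probe sets between them, 11 genes having 1 and 26 having more. None of the 37 lay among the dimmest 30% of genes, the level below which dim genes were left out in one alternative.

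The study asked whether ATAD2, a chromatin-associated ATPase with a bromodomain, is a potential target in hepatocellular carcinoma. Established lines labelled Hep3B, SNU449 and PLC (PLC/PRF/5) were grown in RPMI and transfected, with Lipofectamine RNAiMax, with siRNA against ATAD2 or with a non-targeting control siRNA. Each of the 6 groups had 3 arrays of total RNA, called biological replicates in the labels, which gave 18 arrays. No source used here gives the siRNA sequences, the time after transfection or the oxygen level of the cultures, so each group stands for 1 line under 1 set of culture conditions. Nothing in the labels says whether the replicates were separate cultures on separate days, and the p-values measure the spread between these arrays.

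Cells sense oxygen through prolyl hydroxylases, which mark the alpha subunits of hypoxia-inducible factor (HIF) for capture by the VHL protein and destruction. When oxygen is short the alpha subunits, encoded by HIF1A and EPAS1, persist, pair with ARNT and bind DNA at sites with the core ACGTG or GCGTG. Their targets raise glucose uptake and glycolysis, divert pyruvate to lactate, remove mitochondria and send out vascular signals such as VEGFA and adrenomedullin. Many liver cancers use the same genes under ordinary oxygen, and mRNA is only part of the pathway, since HIF is set mainly by the stability of its protein.

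The siRNA lowered its target on every array. ATAD2 read 5.15, 4.70 and 5.65 (log2 signal) on Hep3B-labelled ATAD2 siRNA arrays, against 8.94, 8.93 and 9.02 on their controls. It read 6.62, 6.90 and 6.96 with ATAD2 siRNA under the SNU449 label, against 9.32, 9.18 and 9.14 on the controls, and 7.05, 7.17 and 7.06 with ATAD2 siRNA under the PLC label, against 9.78, 9.67 and 9.69 in controls. RB1, which Hep3B cells are known to lack, went against 2 of the labels, since it lay between 9.15 and 9.51 on the Hep3B-labelled arrays and between 4.27 and 4.75 on the SNU449-labelled arrays. Most of the 14 measured hepatocyte markers ran the same way. Their list medians were 10.8 to 11.0 under the SNU449 label and 5.0 to 5.2 under the Hep3B label, where ALB lay between 2.85 and 3.53. On controls, 11 of the 14 were higher under the SNU449 label by at least 1 log2 unit. FGB went the other way, with a SNU449 minus Hep3B difference of −4.59. The labels are kept as given, and each statement on a line below is a statement on arrays that carry that label.

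Array medians of the deposited values were 5.36 to 5.38 on Hep3B-labelled ATAD2 siRNA arrays and 5.39 to 5.42 on their controls. Under the SNU449 label they were 5.55 to 5.59 on ATAD2 siRNA arrays and 5.61 to 5.62 on controls, and under the PLC label 4.16 to 4.21 on ATAD2 siRNA arrays and 4.14 to 4.17 on controls. The values look normalized within each line, so levels are compared after quantile normalization over all 18 arrays. The median signal of the 37 genes was 9.10, 9.30 and 9.12 on Hep3B-labelled ATAD2 siRNA arrays, against 9.42, 9.33 and 9.39 on controls. Under the SNU449 label it was 7.85, 7.66 and 7.63 with ATAD2 siRNA, against 7.70, 7.86 and 7.80 in controls, and under the PLC label 8.87, 9.04 and 8.98 with ATAD2 siRNA, against 8.96, 8.96 and 9.05 in controls. Some arrays stood apart in RNA quality. The 5′ minus 3′ signal of ACTB and GAPDH, which falls as RNA degrades, was −1.15, −0.45 and −1.09 on PLC-labelled ATAD2 siRNA arrays, against −0.59, −0.49 and −0.44 on controls, and −0.79, −0.42 and −0.71 on Hep3B-labelled ATAD2 siRNA arrays, against −0.65, −0.78 and −0.73 on controls. SNU449-labelled arrays lay between −0.41 and −0.30. In bulk RNA, fewer cells of a kind and less RNA per cell cannot be told apart.

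Under the Hep3B label, ATAD2 siRNA was followed by lower mRNA of 11 of the 37 genes and by higher mRNA of 4 (limma, adjusted p under 0.05 over all 19775 genes). The genes that fell included the vascular factors VEGFA and ADM, the glucose transporter SLC2A1, 5 enzymes or regulators of glycolysis, the collagen hydroxylase P4HA1 and the mitophagy receptor BNIP3. Those that rose were both genes of HIF alpha subunits, the lipase inhibitor ANGPTL4 and the collagen hydroxylase P4HA2. Over all genes 16.4% passed in either direction, 7.74% lower and 8.68% higher, while 40.5% of the 37 passed. The fitted log2 change lay below 0 for 26 of the 37, with a median of −0.09, against −0.02 over all genes. The count of genes called lower against higher over all genes was 1530 against 1717, 1166 against 2088 with the values as deposited and 828 against 2496 with each array centred on its median. Over the 37 genes the corresponding counts were 11 against 4, 10 against 4 and 8 against 5. The arrays of this knockdown did not behave alike: the median change of the 37 genes against the control mean was −0.15 and −0.17 on ATAD2 siRNA arrays 1 and 3 and −0.01 on array 2, which is the array with the highest 5′ minus 3′ signal of its group. The part of that difference in the counts was not tested. Without array 2, 13 of the 37 genes were lower and 3 higher, and with the 5′ minus 3′ signal as a covariate 12 were lower and 4 higher. The share of all genes called in either fit is not given here, so these counts cannot be set against it. Of 9 mesenchymal markers, 1 passed beside these changes, SPARC at 0.83, and 7 had a fitted change below 0, the median of the 9 being −0.04 and their mean 0.05. Their list medians were 10.6 to 10.7 on ATAD2 siRNA arrays, against 9.8 to 9.9 on controls, SPARC being the middle gene on the controls. Of 14 hepatocyte markers, the fibrinogen chains FGA (1.07, limma adjusted p = 0.00185) and FGB (0.39, adjusted p = 0.000338) rose and CPS1 fell by 0.21 (adjusted p = 0.0286), with list medians of 5.04 to 5.15 on ATAD2 siRNA arrays, against 5.03 to 5.11 on controls. Of 6 measured leukocyte and endothelial markers, CD14 rose by 0.49 (limma, adjusted p = 0.0260) and PECAM1 fell by 0.25 (adjusted p = 0.0278), with list medians of 4.84 to 5.25, against 4.88 to 4.90, while PTPRC and CDH5, which define these cells, averaged 3.54 and 2.81 with ATAD2 siRNA and 3.66 and 2.95 in controls. The part of these markers in the changes was not tested.

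**Figure D1:**
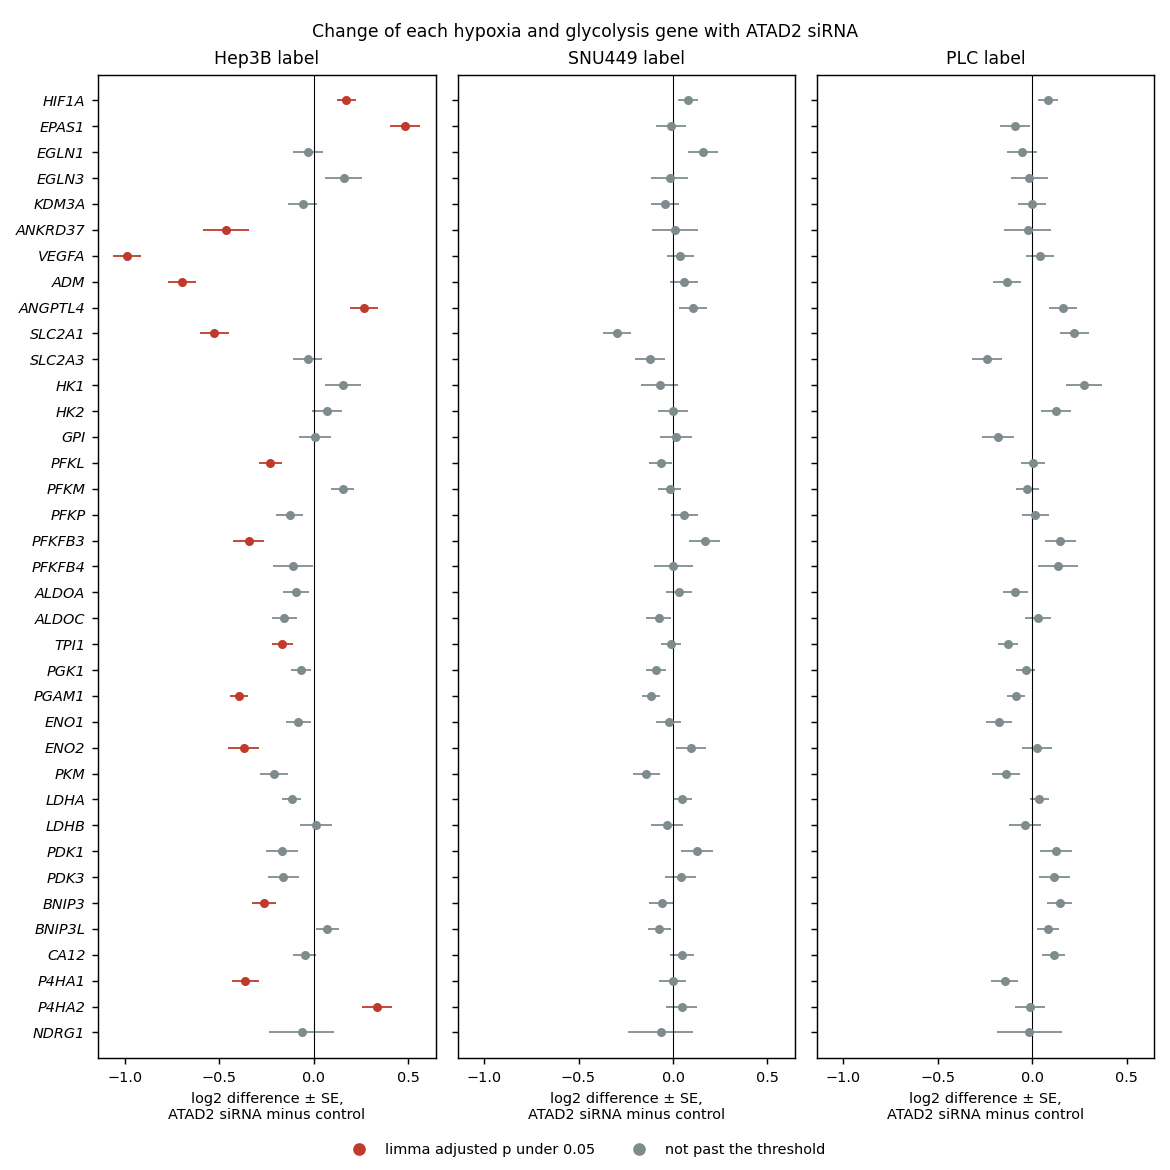
Fitted change of each of the 37 genes with ATAD2 siRNA, as log2 ATAD2 siRNA minus control (x axis, point, with bars of 1 SE from limma), in panels for arrays labelled Hep3B, SNU449 and PLC. Red points passed an adjusted p of 0.05: there are 15 under the Hep3B label, from VEGFA at −0.99 to EPAS1 at 0.49, and none under the other labels.

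Promoter sequence is shown for 7 of the 8 genes with the largest Hep3B-labelled changes, since many HIF targets carry HIF sites near their start; VEGFA, the largest, is named only. Each run is 250 bases before to 50 after a RefSeq start site (GRCh38.p14), 5′ to 3′ along the gene's strand. Capitals mark every match to ACGTG or GCGTG on either strand, so that CACGT and CACGC on the printed strand also count, and overlapping matches such as CACGTG, which holds ACGTG on both strands, appear as 1 run of capitals. The windows are chr11:10304823-10305122 (plus strand) for ADM, chr1:42958819-42959118 (minus) for SLC2A1, chr2:46297157-46297456 (plus) for EPAS1, chr4:185396591-185396890 (plus) for ANKRD37, chr10:97427568-97427867 (plus) for PGAM1, chr12:6914330-6914629 (plus) for ENO2 and chr10:73096817-73097116 (minus) for P4HA1.
ADM: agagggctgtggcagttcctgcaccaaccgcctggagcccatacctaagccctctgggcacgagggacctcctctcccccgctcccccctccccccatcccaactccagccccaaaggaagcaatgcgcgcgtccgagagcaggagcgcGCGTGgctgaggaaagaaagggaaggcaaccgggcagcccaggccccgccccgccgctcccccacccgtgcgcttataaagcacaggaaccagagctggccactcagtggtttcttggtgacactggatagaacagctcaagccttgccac
SLC2A1: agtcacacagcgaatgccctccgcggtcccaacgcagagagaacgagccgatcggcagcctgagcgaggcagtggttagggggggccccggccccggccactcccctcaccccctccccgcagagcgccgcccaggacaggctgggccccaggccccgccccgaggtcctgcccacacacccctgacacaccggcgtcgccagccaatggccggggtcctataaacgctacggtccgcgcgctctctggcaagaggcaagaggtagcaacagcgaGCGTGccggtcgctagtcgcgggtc
EPAS1: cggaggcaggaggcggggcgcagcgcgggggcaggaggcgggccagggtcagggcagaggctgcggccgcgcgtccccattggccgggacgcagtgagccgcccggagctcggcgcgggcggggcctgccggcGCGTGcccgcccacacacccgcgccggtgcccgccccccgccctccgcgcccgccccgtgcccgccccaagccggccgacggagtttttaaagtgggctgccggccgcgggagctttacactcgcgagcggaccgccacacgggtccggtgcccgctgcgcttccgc
ANKRD37: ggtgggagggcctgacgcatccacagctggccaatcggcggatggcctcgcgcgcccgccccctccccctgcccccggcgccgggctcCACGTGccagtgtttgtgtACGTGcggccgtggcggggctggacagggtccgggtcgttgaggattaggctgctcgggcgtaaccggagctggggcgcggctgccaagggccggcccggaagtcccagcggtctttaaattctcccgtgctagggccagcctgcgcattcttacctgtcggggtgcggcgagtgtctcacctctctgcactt
PGAM1: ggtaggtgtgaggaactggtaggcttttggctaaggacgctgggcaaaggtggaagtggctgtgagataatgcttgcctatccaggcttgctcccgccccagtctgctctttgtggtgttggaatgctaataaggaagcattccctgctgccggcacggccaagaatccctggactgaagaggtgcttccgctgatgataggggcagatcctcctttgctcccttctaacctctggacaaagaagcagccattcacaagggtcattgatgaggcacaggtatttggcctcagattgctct
ENO2: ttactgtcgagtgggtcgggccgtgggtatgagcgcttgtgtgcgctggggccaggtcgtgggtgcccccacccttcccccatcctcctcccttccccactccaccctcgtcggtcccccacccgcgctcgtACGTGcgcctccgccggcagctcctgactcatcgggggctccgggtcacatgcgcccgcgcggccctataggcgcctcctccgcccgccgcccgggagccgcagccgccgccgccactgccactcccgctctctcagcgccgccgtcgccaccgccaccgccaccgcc
P4HA1: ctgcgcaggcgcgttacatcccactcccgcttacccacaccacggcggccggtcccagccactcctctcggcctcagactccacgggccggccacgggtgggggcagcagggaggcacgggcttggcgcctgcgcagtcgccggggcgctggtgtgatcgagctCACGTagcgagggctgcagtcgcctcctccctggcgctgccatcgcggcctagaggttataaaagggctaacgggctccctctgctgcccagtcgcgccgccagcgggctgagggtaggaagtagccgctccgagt
ADM, SLC2A1, EPAS1, ENO2 and P4HA1 held 1 match each, ANKRD37 held 3, of which 2 overlap in CACGTG, and PGAM1 held 0. EPAS1, which rose, and ADM, which fell, both showed GCGTG.

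Over the 33 genes of the set with a RefSeq promoter entry, 39 of 57 promoters (68.4%) held a match, against 55.0% of the 21490 promoters of measured genes and 48.4% of all 35116 promoters. By gene, 30 of the 33 (90.9%) had a match in at least 1 promoter, against 62.3% of measured genes. The longer CACGTG stood in 12.3% of the set's promoters and in 8.36% of those of measured genes. CpG content moved with these shares: the median promoter held 28 CpG in the set, 21 among measured genes and 14 over all promoters, and the genes of the set also have more annotated start sites each. The part of CpG content in the share of matches was not tested. BNIP3L, SLC2A3 and NDRG1 are named only.

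VEGFA, the main growth factor for blood vessels, changed most. It read 8.95, 9.24 and 9.05 on Hep3B-labelled ATAD2 siRNA arrays, against 10.00, 10.09 and 10.11 on control arrays. The groups were separated by more than 0.7 log2 units, and the fitted change was −0.99 ± 0.07 (SE), a 1.98-fold lower signal (limma, adjusted p = 9.88e-08). The other 3 VEGFA probe sets also passed, with changes from −0.82 to −0.39. ADM, the peptide adrenomedullin, which widens and seals vessels, read 11.14, 11.00 and 11.12 with ATAD2 siRNA, against 11.79, 11.78 and 11.77 on controls. Its control arrays were nearly equal, and it was 1.62-fold lower (−0.70 ± 0.07, limma adjusted p = 6.50e-06). ANGPTL4, a secreted inhibitor of lipoprotein lipase, moved the other way. It read 6.67, 6.54 and 6.68 with ATAD2 siRNA, against 6.26, 6.44 and 6.39 on controls, a change of 0.27 ± 0.07 (limma, adjusted p = 0.0203). That call was lost when Hep3B-labelled control array 1, ATAD2 siRNA array 1 or ATAD2 siRNA array 3 was left out, with adjusted p up to 0.0969.

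The HIF alpha subunit genes rose, and the oxygen sensors did not pass. EPAS1, encoding HIF-2 alpha, read 9.98, 10.31 and 9.88 on Hep3B-labelled ATAD2 siRNA arrays, against 9.61, 9.54 and 9.56 on controls. Array 2 was the highest, and the change was 0.49 ± 0.08, 1.40-fold (limma, adjusted p = 0.000373). The 2 dimmer EPAS1 probe sets read changes of 0.18 and 0.08 and did not pass. HIF1A, encoding HIF-1 alpha, read 12.97, 13.07 and 13.03 with ATAD2 siRNA, against 12.81, 12.80 and 12.95 on controls, a 1.13-fold difference close to the spread of the controls (limma, adjusted p = 0.0297). It was lost in 8 of 28 alternatives, with adjusted p up to 0.134. The prolyl hydroxylases EGLN1 and EGLN3 and the HIF-induced histone demethylase KDM3A had log2 changes of −0.03, 0.16 and −0.06 and did not pass. ANKRD37, an ankyrin-repeat protein whose gene is a HIF target, read 5.86, 6.19 and 5.94 with ATAD2 siRNA, against 6.53, 6.41 and 6.45 in controls, a change of −0.47 ± 0.12 (limma, adjusted p = 0.0139) on a dim probe set. Its other probe set read 0.08, and the call was lost in 4 of 28 alternatives, with adjusted p up to 0.125.

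**Figure D2:**
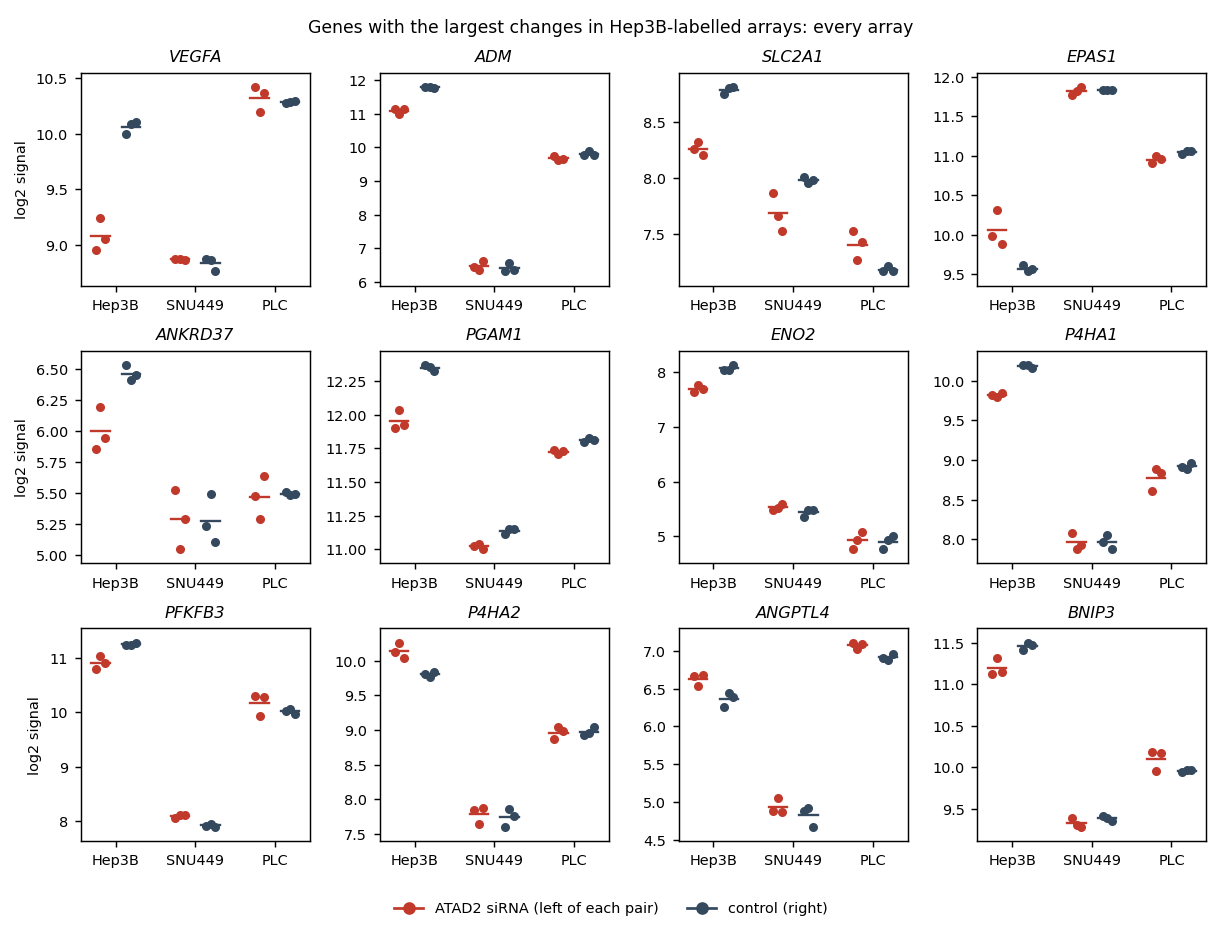
Log2 signal (y axis, own scale in each panel) on every Hep3B-, SNU449- and PLC-labelled array for the 12 genes with the largest Hep3B-labelled changes; points are arrays, bars are group means, and ATAD2 siRNA stands left of control. VEGFA, ADM and SLC2A1 lie clear of their controls under the Hep3B label, while VEGFA reads 8.86 to 8.87 with ATAD2 siRNA and 8.76 to 8.87 in controls under the SNU449 label.

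Of the glucose transporters, SLC2A1 fell. This gene encodes GLUT1, the basal carrier of glucose into most cells. It read 8.26, 8.32 and 8.20 on Hep3B-labelled ATAD2 siRNA arrays, against 8.75, 8.80 and 8.81 on controls, 1.44-fold lower (−0.53 ± 0.08, limma adjusted p = 0.000130). Its other probe set read −0.27 and did not pass. SLC2A3, encoding the high-affinity carrier GLUT3, depended on the probe set. The brightest one, used here, read 5.89, 5.76 and 5.83 with ATAD2 siRNA, against 5.92, 5.77 and 5.89 on controls, while its other probe sets read changes of −0.34, which did not pass, and −0.57 (limma over all probe sets, adjusted p = 0.00215). These probe sets also share much sequence with SLC2A14, to which 2 further probe sets were jointly annotated, so the 2 genes cannot be fully told apart.

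In upper glycolysis, 3 of 11 genes fell under the Hep3B label and none rose, where 7.74% of all genes were lower and 8.68% higher. PFKFB3 makes fructose 2,6-bisphosphate, the activator of phosphofructokinase. It read 10.79, 11.03 and 10.90 with ATAD2 siRNA, against 11.24, 11.24 and 11.27 on controls, 1.27-fold lower (−0.34 ± 0.08, limma adjusted p = 0.00747). PFKL, the liver form of phosphofructokinase, read 7.37, 7.50 and 7.37 with ATAD2 siRNA, against 7.67, 7.66 and 7.60 in controls, a change of −0.23 (adjusted p = 0.0195 in limma), and TPI1, triose phosphate isomerase, read 12.06, 12.20 and 12.03 with ATAD2 siRNA, against 12.25, 12.28 and 12.26 in controls, a change of −0.16 (adjusted p = 0.0473). In both of these the second ATAD2 siRNA array lay nearest to the controls. PFKL was lost in 8 of 28 alternatives, with adjusted p up to 0.385, although its other probe set also passed at −0.28, and TPI1 was lost in 20 of 28. The muscle and platelet phosphofructokinases PFKM and PFKP had changes of 0.15 and −0.13, and hexokinases HK1 and HK2 of 0.16 and 0.07. GPI at 0.01, ALDOA at −0.09, ALDOC at −0.16 and PFKFB4 at −0.11 did not pass either.

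All 5 genes of lower glycolysis had a fitted change below 0, and 2 of them passed, where 7.74% of all genes were called lower. PGAM1, phosphoglycerate mutase, read 11.90, 12.03 and 11.92 on Hep3B-labelled ATAD2 siRNA arrays, against 12.37, 12.35 and 12.32 on controls. With 1.31-fold lower signal (−0.39 ± 0.05, limma adjusted p = 1.76e-05) it had the third-lowest p of the set. ENO2, the neuronal form of enolase and a known HIF target, read 7.62, 7.77 and 7.69 with ATAD2 siRNA, against 8.03, 8.04 and 8.13 in controls, 1.29-fold lower (−0.37 ± 0.08, adjusted p = 0.00368 in limma, and 0.0716 with each array centred on its median). PKM, pyruvate kinase of most tissues, read 9.10, 9.30 and 9.12 with ATAD2 siRNA, against 9.42, 9.33 and 9.39 in controls, and with adjusted p = 0.0616 it passed only in alternatives, among them the one without ATAD2 siRNA array 2. ENO1 and PGK1, the widely expressed enolase and phosphoglycerate kinase, had changes of −0.08 and −0.07. The glycolytic dehydrogenase GAPDH, which is not in the set, had −0.00.

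No gene of pyruvate and lactate handling passed. LDHA, the lactate-forming dehydrogenase subunit, read 12.95, 13.09 and 13.00 with ATAD2 siRNA, against 13.10, 13.15 and 13.14 on controls, which do not overlap, with a change of −0.12 (limma, adjusted p = 0.146). PDK1 and PDK3, kinases that shut off pyruvate dehydrogenase, had changes of −0.17 and −0.16, and LDHB had 0.01. BNIP3, an outer-membrane receptor that marks mitochondria for autophagy, read 11.13, 11.32 and 11.15 with ATAD2 siRNA, against 11.42, 11.50 and 11.47 in controls, 1.20-fold lower (−0.26 ± 0.07, limma adjusted p = 0.0105). Its other probe set also passed, at −0.32. BNIP3L, its relative, had a change of 0.07 and did not pass.

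The 2 catalytic subunits of collagen prolyl 4-hydroxylase, which stabilises collagen helices, were called in opposite directions. P4HA1 read 9.82, 9.79 and 9.85 with ATAD2 siRNA, against 10.20, 10.20 and 10.15 on controls, 1.28-fold lower (−0.36 ± 0.07, limma adjusted p = 0.00191). P4HA2 read 10.12, 10.26 and 10.04 with ATAD2 siRNA, against 9.81, 9.77 and 9.84 in controls, 1.26-fold higher (0.33 ± 0.08, limma adjusted p = 0.00777). No array of one group reached the other in either gene, and the difference between the 2 genes was not tested. P4HA1 did not pass when all its probe sets were averaged (limma, adjusted p = 0.150). Its other probe set read a change of −0.03, and the 2 other P4HA2 probe sets read 0.06 and 0.20, none of which passed. CA12, a membrane carbonic anhydrase, had a change of −0.05. NDRG1, a stress-response gene widely used as a hypoxia marker, read 6.89, 7.72 and 6.69 with ATAD2 siRNA, against 7.12, 7.22 and 7.15 in controls, so that array 2 lay above and arrays 1 and 3 below every control.

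Across the Hep3B-labelled arrays, all ATAD2 siRNA arrays lay below all controls for 13 of the 37 genes, where 17.3% of all genes did, and above them for 6, where 15.5% of all genes did. VEGFA, ADM, SLC2A1, EPAS1, PGAM1, PFKFB3, P4HA2 and BNIP3 passed in all 28 alternatives that were run. The 22 genes that did not pass had changes from −0.21 to 0.16.

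Under the SNU449 label none of the 37 genes passed, where 0.258% of all genes did, 0.111% lower and 0.147% higher (22 lower and 29 higher, 15 and 36 with the values as deposited, 13 and 74 with median centring). At an unadjusted p under 0.05, limma called 2 of the 37, where 2042 of all 19775 genes passed the same cut. The median change of the 37 was −0.0022. VEGFA read 8.87, 8.87 and 8.86 on ATAD2 siRNA arrays, against 8.87, 8.86 and 8.76 on controls. ADM read 6.46, 6.36 and 6.62 with ATAD2 siRNA, against 6.32, 6.56 and 6.37 in controls. Both genes overlapped their controls, unlike under the Hep3B label. SLC2A1 came nearest to a call. It read 7.87, 7.66 and 7.53 with ATAD2 siRNA, against 8.01, 7.96 and 7.98 in controls, so the groups did not overlap, with a change of −0.30 ± 0.08 (limma, adjusted p = 0.129). Without ATAD2 siRNA array 1, which lay nearest to the controls, the change was −0.39 (limma, adjusted p = 0.0427). The other SLC2A1 probe set read a change of 0.08 over all arrays and did not pass. PGAM1, which read 11.03, 11.04 and 11.00 with ATAD2 siRNA, against 11.11, 11.15 and 11.15 in controls, also lay below its controls on each array, with a change of −0.12 (limma, adjusted p = 0.364). The groups did not overlap for 5 genes that lay lower and 5 that lay higher, where 13.2% and 8.76% of all genes did so. EPAS1 read 11.78, 11.83 and 11.87 with ATAD2 siRNA, against 11.83, 11.83 and 11.84 in controls, and ENO2, at 5.49, 5.52 and 5.59 with ATAD2 siRNA, against 5.35, 5.49 and 5.47 in controls, was dim.

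Under the PLC label none of the 37 passed either, where 4.57% of all genes did, 2.24% lower and 2.34% higher (442 lower and 462 higher, 658 and 347 with the values as deposited, 736 and 215 with median centring). Unadjusted, limma called 8 of the 37 at p under 0.05, where 4157 of all 19775 genes passed the same cut. The median change of the 37 was −0.0024. SLC2A1 lay above its controls here. It read 7.52, 7.27 and 7.43 with ATAD2 siRNA, against 7.17, 7.21 and 7.17 in controls, with a change of 0.22 ± 0.08 (limma, adjusted p = 0.106). The other SLC2A1 probe set read a change of 0.05 and did not pass. SLC2A3 lay below its controls, at 9.41, 9.69 and 9.44 with ATAD2 siRNA, against 9.71, 9.78 and 9.78 in controls, with a change of −0.24 (limma, adjusted p = 0.0890), and 1 of its other probe sets passed at −0.76 (adjusted p = 0.00235). HK1, a hexokinase that binds mitochondria, read 7.74, 7.55 and 7.79 with ATAD2 siRNA, against 7.34, 7.50 and 7.42 in controls, with a change of 0.27 (limma, adjusted p = 0.113). VEGFA read 10.42, 10.19 and 10.37 with ATAD2 siRNA, against 10.28, 10.29 and 10.30 in controls, and thus fell on both sides of its controls. ADM read 9.75, 9.62 and 9.65 with ATAD2 siRNA, against 9.78, 9.88 and 9.77 in controls, a difference of −0.13 that did not pass. EPAS1 read 10.91, 11.00 and 10.96 with ATAD2 siRNA, against 11.02, 11.06 and 11.06 in controls, a small gap with no overlap. ENO2 was dim, at 4.77, 4.93 and 5.09 with ATAD2 siRNA, against 4.77, 4.93 and 5.01 in controls. PGAM1 read 11.74, 11.71 and 11.73 with ATAD2 siRNA, against 11.79, 11.83 and 11.81 in controls, all below, with a change of −0.09. The groups did not overlap for 7 genes that lay lower and 4 that lay higher, where 9.11% and 10.8% of all genes did so.

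The PLC-labelled counts changed when 1 array was left out. ATAD2 siRNA array 2 lay close to the controls in SLC2A1, SLC2A3, HK1, ENO1, TPI1 and GPI, and it was the array of its group without the low 5′ signal. Without it, 4 genes were called lower, SLC2A3 (−0.33), ENO1 (−0.26), GPI (−0.28) and TPI1 (−0.17), and 4 higher, SLC2A1 (0.29), HK1 (0.35), PFKFB3 (0.27) and BNIP3 (0.22), with limma adjusted p between 0.00508 and 0.0499. The share of all genes called without that array is not given here, so these counts cannot be set against it. PLC-labelled knockdown also came with lower hepatocyte markers, 7 of 14 passing, ALB among them at −1.02, and list medians of 8.36 to 8.62 on ATAD2 siRNA arrays, against 9.07 to 9.15 on controls. The part of RNA quality and of the marker shift in the changes of these genes was not tested.

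The change with ATAD2 siRNA differed between lines for 8 of the 37 genes (21.6%), against 9.18% of all genes (limma F test over both differences of change, adjusted p under 0.05). The 8 were VEGFA, ADM, SLC2A1, EPAS1, PGAM1, PFKFB3, ENO2 and BNIP3, and VEGFA, ADM and SLC2A1 passed in all 27 alternatives that gave this test. VEGFA's change under the SNU449 label exceeded that under the Hep3B label by 1.03 ± 0.10 (limma, adjusted p = 9.57e-06), and the PLC-labelled change exceeded it by 1.03 (adjusted p = 1.57e-05). The other 3 VEGFA probe sets read PLC-labelled changes from −0.35 to −0.14, none of which passed. For SLC2A1 the PLC-labelled change was 0.75 ± 0.11 above the Hep3B-labelled one (limma, adjusted p = 0.000446), while the SNU449-labelled change was 0.23 above it and did not pass (adjusted p = 0.302). The SLC2A1 difference between SNU449- and PLC-labelled changes was −0.52 ± 0.11 (adjusted p = 0.0628 in limma), and no gene of the set passed in that pair.

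ADM's change was 0.75 higher under the SNU449 label and 0.56 higher under the PLC label than under the Hep3B label, PFKFB3's 0.51 and 0.49 higher, ENO2's 0.47 and 0.40 higher and PGAM1's 0.28 and 0.31 higher. For EPAS1 the same differences of change were −0.49 and −0.58. BNIP3 passed for the PLC label (0.41, limma adjusted p = 0.0115) and not for the SNU449 label (0.20, adjusted p = 0.285) on the probe set used. On its other probe set BNIP3 changed by 0.10 under the SNU449 label and −0.16 under the PLC label. Neither change passed, and both were opposite in sign to those on the probe set used, so the pattern between lines depends on the probe set. Its F test was lost in 13 of 27 alternatives, among them the 5′ minus 3′ signal as a covariate (limma, adjusted p = 0.126) and the one without both PLC-labelled ATAD2 siRNA arrays of low 5′ signal (adjusted p = 0.127), which leaves 1 array in that group, with its spread taken from the other groups. P4HA1 missed the F test (limma, adjusted p = 0.0740), with a SNU449-labelled change 0.36 above the Hep3B-labelled one (adjusted p = 0.0456). PFKFB3 read 8.05, 8.11 and 8.11 on SNU449-labelled ATAD2 siRNA arrays, against 7.92, 7.95 and 7.89 in controls, and 10.30, 9.92 and 10.27 on PLC-labelled ones, against 10.02, 10.06 and 9.97 in controls. BNIP3 read 9.39, 9.31 and 9.28 with ATAD2 siRNA, against 9.41, 9.40 and 9.35 in controls under the SNU449 label, and 10.19, 9.96 and 10.17, against 9.95, 9.96 and 9.97 in controls under the PLC label. In both genes PLC-labelled ATAD2 siRNA array 2 lay below or among its controls while arrays 1 and 3 lay above.

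The control arrays of the 3 labels were compared with each other. A difference between control groups was counted where it passed limma's adjusted p of 0.05 and reached 1 log2 unit. SNU449-labelled controls were lower than Hep3B-labelled controls in 21 of the 37 genes and higher in 4, where 10.5% and 9.24% of all genes were (19.7% in either direction). PLC-labelled controls were lower than Hep3B-labelled controls in 11 and higher in 4, where 8.83% and 9.58% of all genes were (18.4% in either), and SNU449-labelled controls were lower than PLC-labelled controls in 14 and higher in 3, where 10.5% and 8.63% were (19.2% in either). These counts depend on the scaling. The median difference of all genes between PLC- and Hep3B-labelled controls was −0.02 as used here, −0.62 as deposited and 0.62 with median centring, and the genes called lower against higher were 1747 against 1895, 7034 against 1476 and 846 against 7390. Between SNU449- and PLC-labelled controls the medians were 0.01, 0.76 and −0.69 and the calls 2086 against 1706, 1338 against 8084 and 7863 against 713. Between SNU449- and Hep3B-labelled controls the medians were −0.02, 0.15 and −0.06 and the calls 2070 against 1828, 1660 against 2094 and 2108 against 1510. Of the genes of the set that passed at any size, 0 of 33 turned direction under another scaling between SNU449 and Hep3B labels, 17 of 34 between PLC and Hep3B and 7 of 32 between SNU449 and PLC.

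**Figure D3:**
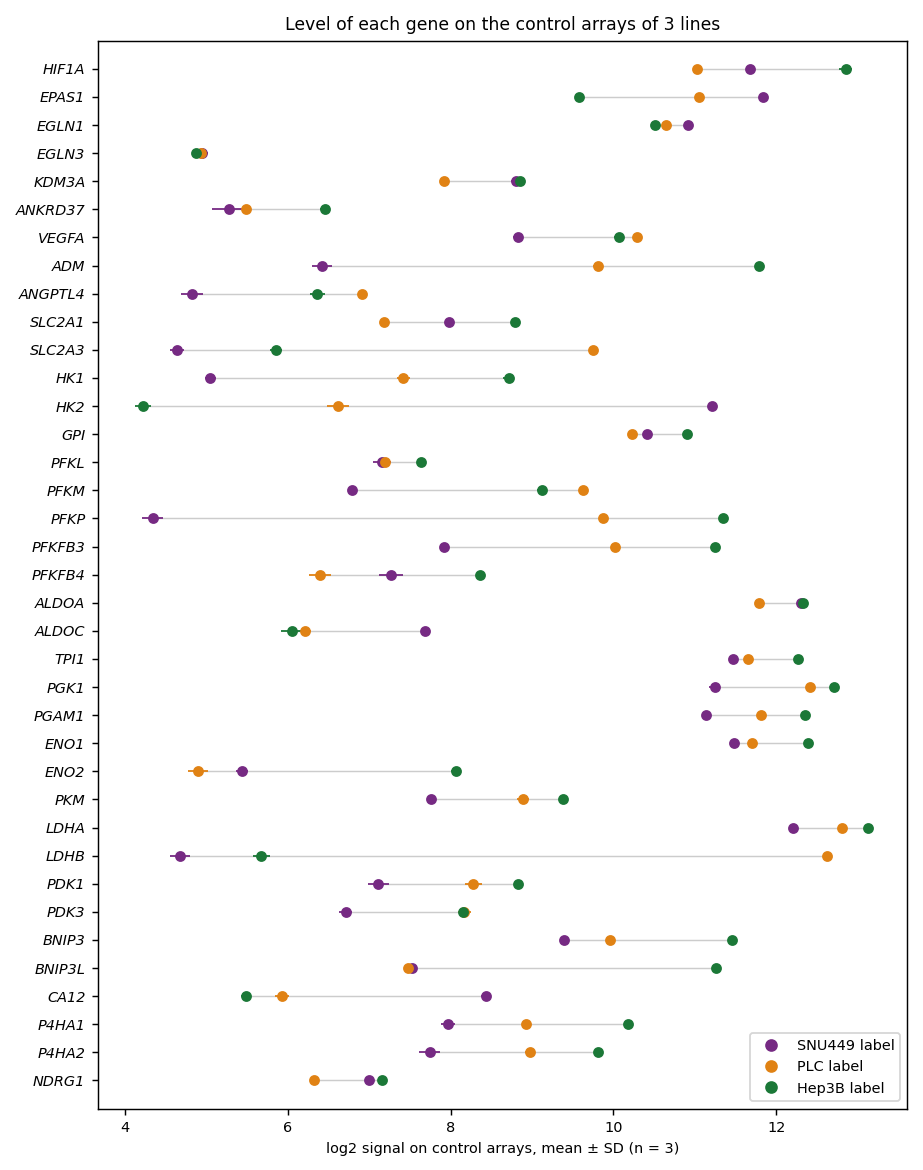
Mean log2 signal ± SD (n = 3) of each of the 37 genes on control arrays labelled SNU449, PLC and Hep3B, after quantile normalization over all 18 arrays. Points may be compared within a gene but not between genes, and comparisons with the PLC label depend on the scaling. Of the genes that passed at any size, 17 of 34 turned direction under another scaling between PLC and Hep3B and 7 of 32 between SNU449 and PLC. HK2 is highest under the SNU449 label, LDHB and SLC2A3 under the PLC label and PFKP, ADM and BNIP3L under the Hep3B label.

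Between SNU449- and Hep3B-labelled controls, HK2 lay higher and HK1 lower. HK2, the inducible form common in tumours, read 11.26, 11.19 and 11.17 on SNU449-labelled controls, 6.49, 6.75 and 6.61 on PLC-labelled controls and 4.31, 4.25 and 4.11 on Hep3B-labelled controls. HK1 read 5.11, 4.97 and 5.07 under the SNU449 label, 7.34, 7.50 and 7.42 under the PLC label and 8.76, 8.75 and 8.64 under the Hep3B label. No control arrays of different labels overlapped in either gene. The SNU449 minus Hep3B difference of HK2 was 6.98 on this probe set (limma, adjusted p = 1.92e-20), but its Hep3B-labelled level lies under 4.88, the signal below which the dimmest 30% of genes fall, so its size is limited by the dim end of the scale. The 2 dimmer HK2 probe sets gave 0.94 and 0.85, and the HK1 difference was −3.67 ± 0.10. The place of the PLC label in between is less certain: one dimmer HK2 probe set lay lower there than under the Hep3B label (−0.41, limma over all probe sets, adjusted p = 0.0223), and the PLC minus Hep3B difference of HK1 lost its call with median centring (adjusted p = 0.0607).

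Phosphofructokinase, the rate-setting step of glycolysis, showed PFKP at 4.27, 4.27 and 4.50 on SNU449-labelled controls, at 9.83, 9.92 and 9.86 on PLC-labelled controls and at 11.37, 11.34 and 11.33 on Hep3B-labelled controls. The SNU449-labelled level again lies under 4.88, so the difference of −7.00 from the Hep3B label is limited in the same way, and the PLC minus Hep3B difference lost its call with median centring (limma, adjusted p = 0.281). PFKM read 6.77, 6.80 and 6.78 under the SNU449 label, 9.62, 9.65 and 9.61 under the PLC label and 9.18, 9.08 and 9.10 under the Hep3B label, so its order was PLC, Hep3B, SNU449. PFKFB3 read 7.92, 7.95 and 7.89 under the SNU449 label, 10.02, 10.06 and 9.97 under the PLC label and 11.24, 11.24 and 11.27 under the Hep3B label. Its PLC minus Hep3B difference of −1.23 turned to 0.17 with median centring, while its SNU449 minus Hep3B difference of −3.33 did not turn. ENO2 read 5.35, 5.49 and 5.47 under the SNU449 label, 4.77, 4.93 and 5.01 under the PLC label and 8.03, 8.04 and 8.13 under the Hep3B label, and was highest under the Hep3B label, where it fell with ATAD2 siRNA.

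Lactate dehydrogenase differed by subunit. LDHB, the subunit that favours lactate use, read 4.54, 4.77 and 4.73 on SNU449-labelled controls, 12.63, 12.62 and 12.61 on PLC-labelled controls and 5.73, 5.56 and 5.74 on Hep3B-labelled controls. The PLC minus Hep3B difference was 6.94 ± 0.08 (limma, adjusted p = 5.91e-20), and the other LDHB probe set gave 8.13. LDHA was high under every label, between 12.18 and 13.15 on control arrays. Its PLC minus Hep3B difference of −0.33 turned with median centring. SLC2A3 followed the order of LDHB and read 4.73, 4.56 and 4.64 under the SNU449 label, 9.71, 9.78 and 9.78 under the PLC label and 5.92, 5.77 and 5.89 under the Hep3B label.

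**Figure D4:**
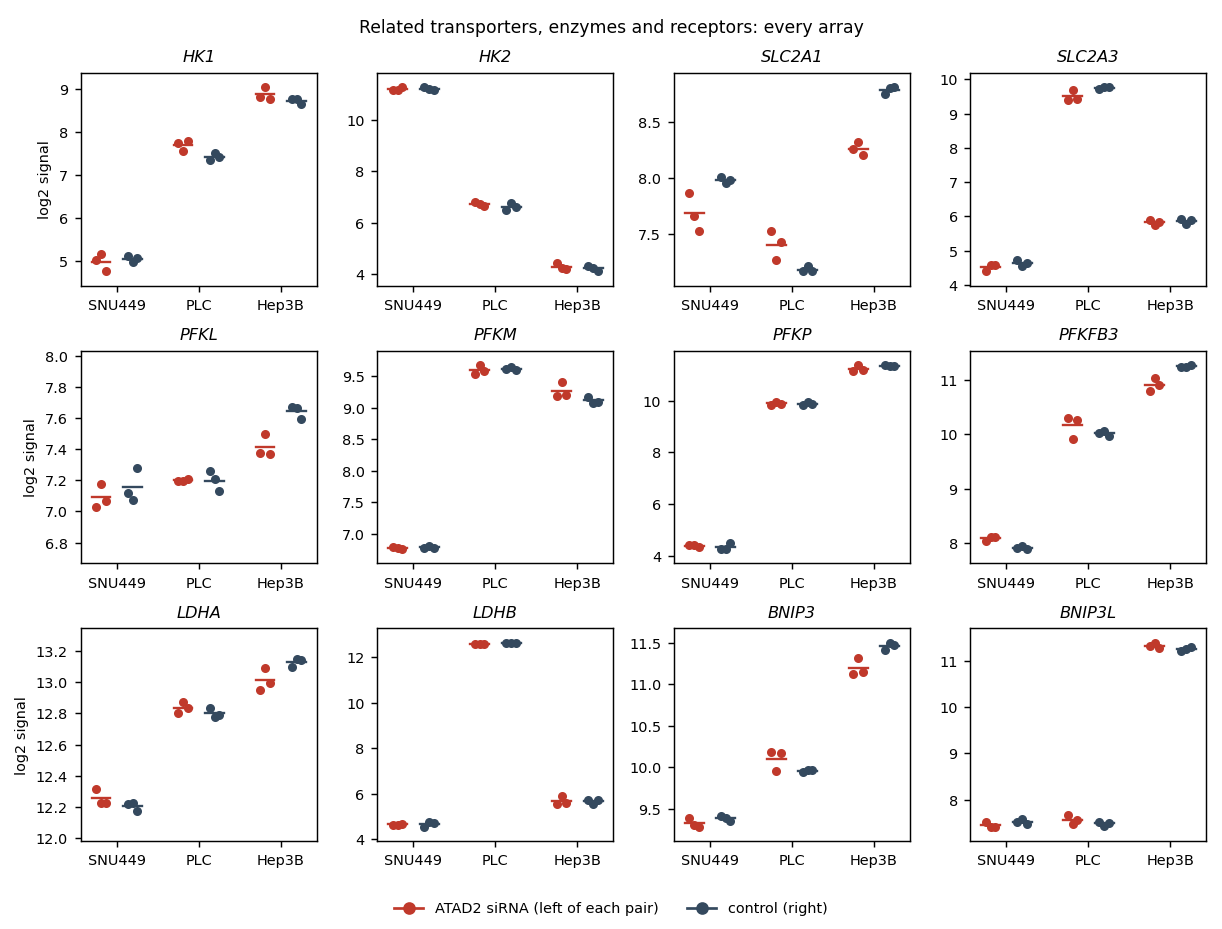
Log2 signal (y axis, own scale in each panel) on every array for related transporters, enzymes and mitophagy receptors, with lines in the order SNU449, PLC and Hep3B, ATAD2 siRNA left of control and bars at group means. The gaps between lines in HK2, PFKP and LDHB, of over 6 log2 units between some labels, exceed the ATAD2 siRNA changes in the same panels, none of which passed for these 3 genes.

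Among secreted and regulatory genes, ADM read 6.32, 6.56 and 6.37 on SNU449-labelled controls, 9.78, 9.88 and 9.77 on PLC-labelled controls and 11.79, 11.78 and 11.77 on Hep3B-labelled controls, a SNU449 minus Hep3B difference of −5.36 ± 0.07 (limma, adjusted p = 2.74e-19). BNIP3L read 7.51, 7.58 and 7.48 under the SNU449 label, 7.52, 7.44 and 7.50 under the PLC label and 11.22, 11.26 and 11.30 under the Hep3B label, and its SNU449- and PLC-labelled levels overlapped. That SNU449 minus PLC difference depended on scaling and probe set: it was 0.04 as used here (adjusted p = 0.591 in limma), −1.05 with median centring (adjusted p = 1.61e-12) and 0.33 on the other BNIP3L probe set (adjusted p = 0.00449). CA12 averaged 8.43 ± 0.05 on SNU449-labelled controls, 5.93 ± 0.09 on PLC-labelled controls and 5.48 ± 0.05 on Hep3B-labelled controls (SD, n = 3 each), and the PLC minus Hep3B difference of 0.45 turned with another scaling. On the probe sets used, the alpha subunit genes were ordered differently from each other: EPAS1 was 2.26 ± 0.08 higher on SNU449-labelled than on Hep3B-labelled controls, and HIF1A had a difference of −1.17 ± 0.05 there. The 2 dimmer EPAS1 probe sets gave 0.89, which passed in limma over all probe sets, and −0.06, which did not. VEGFA read 8.87, 8.86 and 8.76 under the SNU449 label, 10.28, 10.29 and 10.30 under the PLC label and 10.00, 10.09 and 10.11 under the Hep3B label, so PLC-labelled controls lay above Hep3B-labelled controls.

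Other genes of the HIF pathway and of glucose metabolism, taken from lists of the pathways, were counted under the Hep3B label too. Of 15 genes of the HIF machinery, 2 fell and 1 rose, which is close to the 16.4% of all genes that passed in either direction. VHL, the substrate receptor that captures hydroxylated HIF alpha, read 6.65, 6.63 and 6.55 with ATAD2 siRNA, against 7.02, 7.15 and 7.12 on controls, a change of −0.49 ± 0.07 (limma, adjusted p = 5.93e-05). ELOC and CUL2, parts of the same ubiquitin ligase, had changes of −0.23 and 0.21. Of 28 measured other hypoxia targets, 4 fell and 8 rose, where 7.74% of all genes were lower and 8.68% higher, with a median change of 0.04. TMEM45A, a membrane protein, lay between 6.81 and 7.25 with ATAD2 siRNA and between 7.99 and 8.09 in controls, 2.03-fold lower (limma, adjusted p = 7.03e-07). LOX, which crosslinks collagen, was 1.51-fold higher (0.60, adjusted p = 0.000443 in limma), VLDLR, a lipoprotein receptor, 1.40-fold higher (0.49) and PLOD2, a collagen lysyl hydroxylase, 1.33-fold higher (0.42).

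Of 25 measured other genes of glycolysis and pyruvate use, 2 fell and 3 rose under the Hep3B label, close to the 16.4% of all genes that passed in either direction. HKDC1, a hexokinase-like protein, read 7.01, 7.46 and 6.96 with ATAD2 siRNA, against 7.73, 7.88 and 7.84 on controls, a change of −0.68 ± 0.12 (limma, adjusted p = 0.000828). PDP1, the phosphatase that reactivates pyruvate dehydrogenase, read 10.53, 10.12 and 10.50 with ATAD2 siRNA, against 9.74, 9.78 and 9.75 in controls, a change of 0.63 ± 0.10 (limma, adjusted p = 0.000200). PDK4, a kinase that acts against it, rose by 0.39, and BPGM, which makes 2,3-bisphosphoglycerate, by 0.24. In these lists no gene passed under the SNU449 label. Under the PLC label SLC2A2, the GLUT2 carrier of hepatocytes, read 7.47, 7.58 and 7.67 with ATAD2 siRNA, against 7.94, 7.92 and 8.02 in controls, a change of −0.39 ± 0.07 (limma, adjusted p = 0.00520).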

How the data were processed

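Biotin-labelled total RNA was read on 54675 probe sets, and the deposited table holds log2 signals from 1.33 to 13.97 for 18 arrays. No source used here gives the steps by which the authors made these log2 values. Per the submitters' processing notes, limma was used by them (version not given in the sources used here). Sorted columns differ by at most 0.155 within a line and by up to 1.51 over all arrays. Probe sets annotated to 1 gene (41097, against 1801 with several and 11777 with none) were named through gene IDs of RefSeq GRCh38.p14, and the brightest probe set stood for each of 19775 genes. Values were quantile normalized over all arrays and fitted with limma 3.58.1 in R 4.3.3, with 1 mean per group and 12 residual degrees of freedom. P-values were adjusted by Benjamini-Hochberg over all genes, with a threshold of 0.05. An exact permutation test of 3 against 3 arrays cannot go below 0.1. Replicate numbers did not pair the arrays (correlation of same-numbered deviations from −0.125 to 0.0928). Values per array are given for genes past the threshold in a knockdown or in the F test, and for 11 of the 12 with the largest differences between controls (CA12 as mean ± SD); of each other list, up to 4 genes are named. The genes and lists were chosen with earlier results of these data known. Tests were checked on simulated data with independent noise and 1 spread per gene in all groups. That cannot check them for unequal spread, where the median SD of a gene ran from 0.066 (SNU449 ATAD2 siRNA) to 0.118 (PLC ATAD2 siRNA). Nor can it check them for shifts of whole arrays. Besides this, 28 alternatives were run. The number of arrays limits the precision.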

Additional observations from a re-analysis of the deposited data

Results flagged for a closer look

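Of the 37 hypoxia and glycolysis genes, 8 were picked out because their change with ATAD2 siRNA differed between the lines by a test of the difference itself, limma's F test adjusted over all genes. The adjusted p was 7.67e-06 for VEGFA, 0.000689 for ADM, 0.000994 for SLC2A1 and 0.00639 for EPAS1. It was 0.0110 for PGAM1, 0.0130 for PFKFB3, 0.0250 for ENO2 and 0.0280 for BNIP3. VEGFA changed by −0.99 under the Hep3B label, and by 0.04 under the SNU449 label and 0.04 under the PLC label, all 3 Hep3B-labelled ATAD2 siRNA arrays lying below their controls. SLC2A1 changed by −0.53, −0.30 and 0.22 in that order of lines on the probe set used, with no overlap between groups in any line. Its other probe set read changes of −0.27, 0.08 and 0.05, none of which passed. The other BNIP3 probe set read −0.32, 0.10 and −0.16 in the same order, and only the Hep3B-labelled change passed. EPAS1 was the 1 gene of the 8 that rose under the Hep3B label. ENO2 missed the threshold in 6 of 27 alternatives, with adjusted p up to 0.132, and BNIP3 in 13, with adjusted p up to 0.127. EPAS1 missed it when all probe sets of a gene were averaged (0.0894), and PGAM1 (0.0704) and PFKFB3 (0.0514) missed it with a replicate block. The Hep3B and SNU449 labels run against RB1 and most of the hepatocyte markers, so which line carries the changes is known only by label.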

How the results depend on the processing

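Counts are of the 37 genes. Scaling moved the line comparisons most. Between PLC- and Hep3B-labelled controls 3 were lower and 11 higher with median centring, and 7 and 2 with all probe sets averaged, against 11 and 4. Over all genes 846 and 7390 were called with median centring and 1331 and 1620 with averaged probe sets, against 1747 and 1895. PFKFB3 turned to 0.17 with median centring. Between SNU449- and PLC-labelled controls 26 were lower with centring and 10 higher with the values as deposited or normalized within lines, against 14 and 3. Under the PLC label 1 gene was called lower in each of 4 settings (SLC2A3 as deposited, with centring or with averaged probe sets, ENO1 with an intensity trend), and SLC2A1 alone higher (1 gene) with normalization within lines. Medians of change were 0.032 (deposited) and 0.072 (centred) under the SNU449 label, and −0.030, −0.054 and, with the 5′ minus 3′ covariate, 0.030 under the PLC label. The cause was not tested. A replicate block left 5 genes differing between lines, against 8, and the share of all genes that differed with it is not given here. Under the Hep3B label the block gave 9 lower and 3 higher, losing PFKL, TPI1 and HIF1A. Calls fell over all genes too, to 1216 lower and 1435 higher of 19775 under that label, against 1530 and 1717. The block called 5 lower and 3 higher of all genes under the SNU449 label and 233 and 207 under the PLC label. The share of all genes with 1 array left out is not given here. Leaving out 1 array gave 8 to 13 lower and 2 to 4 higher (2 without Hep3B control 1 or ATAD2 siRNA 3) and medians of −0.156 to −0.054 under the Hep3B label. It gave 0 to 1 lower (SLC2A1, without ATAD2 siRNA 1), 0 higher and medians of −0.017 to 0.013 under the SNU449 label, and 0 to 4 lower, 0 to 4 higher (4 and 4 without ATAD2 siRNA 2) and medians of −0.018 to 0.011 under the PLC label. Counts lower and higher between controls stayed at 21 to 22 and 4 (SNU449 against Hep3B), 11 and 4 (PLC against Hep3B) and 14 to 15 and 3 (SNU449 against PLC), and 6 to 9 genes differed between lines. Fitting each line alone gives no test between lines. Leaving out both PLC arrays with low 5′ signal was chosen after seeing the data, and the lone array left is assumed to vary like the other groups. With 3 arrays a group, small changes of dim probe sets cannot be resolved.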

Other observations

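Neighbouring pathways were covered by further lists. Of 8 gluconeogenesis genes, 1 rose under the Hep3B label and 1 under the PLC label, where 8.68% and 2.34% of all genes did. The first was under the Hep3B label. PC, pyruvate carboxylase, which turns pyruvate into oxaloacetate, read 7.29, 7.35 and 7.18 on ATAD2 siRNA arrays, against 6.52, 6.52 and 6.62 on controls, 1.65-fold higher (0.72 ± 0.06, limma adjusted p = 7.31e-07). Its groups were separated by more than 0.5 log2 units. Under the PLC label G6PC3, a ubiquitous glucose-6-phosphatase, read 9.28, 8.99 and 9.27, against 8.86, 8.90 and 8.84, a change of 0.31 ± 0.07 (limma, adjusted p = 0.0201). Array 2, which lacks the low 5′ signal of its group, again lay nearest to the controls.

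Of 7 measured pentose phosphate genes, RPIA, ribose-5-phosphate isomerase, fell by 0.42 under the Hep3B label (limma, adjusted p = 0.00112), and RPE, its partner epimerase, rose by 0.26 (limma, adjusted p = 0.00169). Over all genes 7.74% were lower and 8.68% higher under that label. Among 13 measured ligands and receptors of the VEGF and adrenomedullin systems, 1 fell under the Hep3B label and 1 under the PLC label. Of all genes, 7.74% and 2.24% did so. RAMP2, which turns the receptor CALCRL into an adrenomedullin receptor, had a change of −0.30 ± 0.07 under the Hep3B label (limma, adjusted p = 0.0100). CALCRL itself had −0.33 ± 0.09 under the PLC label (limma, adjusted p = 0.0439), at means of 3.82 on ATAD2 siRNA arrays and 4.15 on controls, among the dimmest genes. No gene of these lists passed under the SNU449 label.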
